A study of Mus musculus with 23 samples.

Results

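The genes of oxidative phosphorylation were followed in mouse embryonic stem cells kept in a naive state or moved toward an epiblast-like state, with and without RAS and with and without the transcriptional repressor ERF. Members were chosen by symbol: Nduf, Sdh (with a letter a to d), Uqcr, Cox4 to Cox8 and Atp5 for the nuclear genome, and mt-Nd, mt-Co, mt-Atp and mt-Cyt for the mitochondrial genome. Of 53607 rows, 123 matched. The 9 rows marked "-ps" were dropped, among them Ndufb1-ps, which reached 319 counts and is the symbol of the Ndufb1 gene in this annotation. A further 5 rows (Cox6c2, Ndufa11b, Ndufs6b, Cox8b and Cox8c) stayed under 10 counts in every library. The remaining 109 genes, 96 nuclear and 13 mitochondrial, all entered the test, among 20372 rows tested in all.

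Oxidative phosphorylation moves electrons from NADH and succinate through complexes I to IV to oxygen, and uses the proton gradient so built to make ATP at complex V. Complex II is encoded wholly in the nucleus, whereas complexes I, III, IV and V join nuclear subunits with subunits made inside the mitochondrion from long polycistronic transcripts. Naive pluripotent cells are known to use respiration beside glycolysis, and primed cells to lean on glycolysis.

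All 23 libraries came from one background of embryonic stem cells, labelled N-Ras-/- and H-Ras-/- with a conditional Raslox/lox allele and Ubiq-CreERT2, a tamoxifen-activated recombinase driven by a ubiquitin promoter. In RAS-deleted groups the cells had 4-hydroxytamoxifen (OHT) for 6 days, so drug and deletion cannot be told apart, and the cells labelled wild type carry the N-Ras-/- and H-Ras-/- labels too. ERF wild-type and ERF knockout (ERF KO) cells were each grown in 2iL (LIF with inhibitors of MEK and of GSK3, a mix that holds the naive state) or for 48 hours in FA (FGF2 with Activin A). The groups are called reference (ERF wild type, no OHT), RAS-deleted, ERF knockout, and double (ERF knockout with OHT). Each medium and genotype had 3 libraries, except the reference in FA with 2. How the ERF knockout was made, and whether it is 1 clone, is not given in the sources used here, nor is it said that replicates are separate cultures, so p-values measure only the spread between these samples.

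The libraries held 16221640 to 29874207 counts. The nuclear members took 0.519% to 0.672% of them, the mitochondrial members 0.526% to 1.06%, and the single row Gm26917 17.6% to 27.9%. Replicate 1 of the reference and RAS-deleted groups stood apart in both media: its chromosome 8 genes lay 0.25 to 0.38 above the other libraries on the log2 scale, and results are therefore also given without these 4 libraries. The reference in FA then has 1 library, as it has when either of its libraries is left out, and in those fits it is assumed to vary like the other groups, which alone give the spread. Erf counts were not lower in libraries labelled ERF knockout in 2iL, at 116 ± 17.5 against 77.6 ± 7.66 CPM in the reference. Here CPM is the count per 1000000 counts at edgeR's normalised library size. In FA, Erf stood at 57.5 ± 7.06 CPM in ERF knockout against 63.1 ± 9.41 in reference cells. Double FA cells had 60.6 ± 9.91 against 69.7 ± 4.12 CPM in RAS-deleted ones. Hras and Nras kept counts in all groups, although both genes carry -/- labels. In the reference in 2iL, Hras was at 14.9 ± 0.567 and Nras at 37.3 ± 4.81 CPM. Nras also differed between libraries of 1 label, from 143 to 908 counts in ERF knockout (27.4 ± 18.2 CPM) and from 95 to 919 in double cells (30.8 ± 23.7 CPM) in 2iL. A gene-level count need not fall where a deletion is small. The naive markers Zfp42, Klf2, Tbx3 and Esrrb summed to 1100 to 1360 CPM in the 2iL groups. In FA they summed to 77.6 to 122 CPM in the reference, 74 to 115 in ERF knockout, 89.3 to 123 in double, and 637 to 1060 in RAS-deleted cells. Epiblast markers (Fgf5, Otx2, Pou3f1, Dnmt3b) summed to 43 to 72.5 CPM in 2iL, and in FA to 548 to 619 in reference, 343 to 401 in ERF knockout, 461 to 487 in double and 102 to 290 in RAS-deleted libraries. Dnmt3b made up most of that sum (450 CPM in the FA reference), and Otx2 had 52.1 CPM in RAS-deleted FA cells and 25.7 in the FA reference. Pluripotency markers (Pou5f1, Sox2, Sall4, Utf1) summed to 781 to 1270 CPM in all libraries, with members going different ways: from 2iL to FA the reference had 259 and 82.9 CPM of Sox2 and 35.1 and 241 of Utf1, while RAS-deleted cells had 248 and 257 of Sox2. Fibroblast markers summed to at most 6.24 CPM, with Postn and other genes of that list at 0 in some groups. Primitive endoderm markers summed to 38.2 to 64.8 CPM in the FA reference and 41.5 to 50.4 in FA ERF knockout cells, against 3.91 to 8.06 and 7.94 to 12.1 in RAS-deleted and double FA cells. Neural markers summed to 8.63 to 13.6 CPM in 2iL and 47.5 to 47.9 in FA in the reference, 4.84 to 6.29 and 11.9 to 21.4 in RAS-deleted, 16.1 to 19.9 and 39.3 to 48.4 in ERF knockout, and 14.1 to 17.5 and 97.3 to 101 in double cells. The summed trophoblast markers were at 20.8 to 21.2 CPM in FA RAS-deleted cells, of which Gata3 made up 18.1 ± 0.528 (1.63 ± 0.373 in the FA reference), with Cdx2 at 0.0599 against 0.454 CPM. The part of these cell states in the results that follow was not tested, and in bulk samples fewer cells of a type and less RNA per cell cannot be told apart.

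The summed level of the nuclear genes of the respiratory chain was lower in FA than in 2iL in each of the 4 lines. Per length, in the deposited TPM (transcripts per 1000000), the highest nuclear members of the reference in 2iL were Atp5b (1100 ± 66.5 TPM), the catalytic beta subunit of ATP synthase, and Cox4i1 and Cox5a (328 ± 10.6 and 309 ± 29.5 TPM), subunits of cytochrome c oxidase, and the median member stood at 72.5 TPM. Here and below ± is the SD over libraries, with n = 3, or n = 2 for the reference in FA. The 96 nuclear genes together gave 6580 ± 79.7 CPM in the reference in 2iL and 5510 ± 587 in FA. RAS-deleted cells went from 6420 ± 149 to 5450 ± 365 CPM, ERF knockout cells from 6700 ± 47.4 to 5640 ± 303, and double cells from 7180 ± 232 to 4990 ± 159. No FA library reached any 2iL library: the highest FA sum was 5927 CPM and the lowest 2iL sum 6253.

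**Figure D1:**
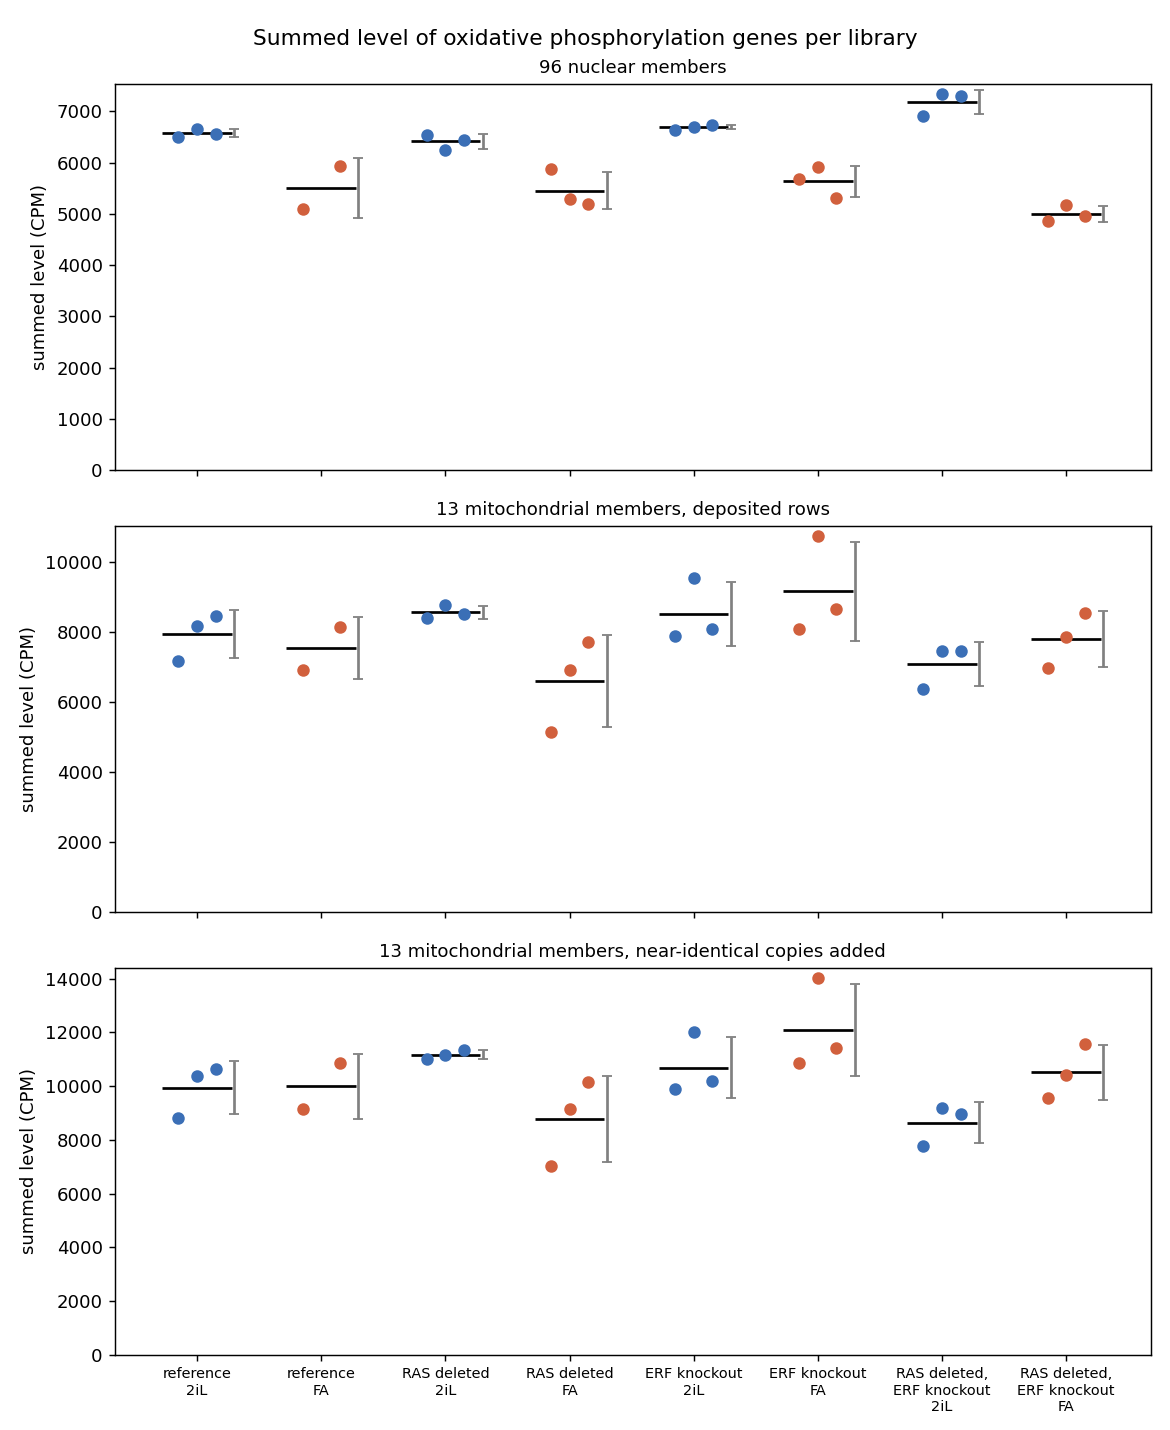
Summed CPM of the 96 nuclear genes (top), the 13 mitochondrial genes as deposited (middle) and the mitochondrial genes with the counts of near-identical copies added (bottom), for 4 lines in 2iL (blue) and FA (orange). Points are libraries, bars the mean and grey lines the SD; all FA points of the nuclear sum lie under 5927 CPM or at it, and all 2iL points at or above 6253, whereas the mitochondrial sums of the media overlap in the reference and ERF knockout lines, and in the double line as deposited but not with copies added.

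A gene was called where the Benjamini-Hochberg adjusted p of edgeR's quasi-likelihood test, over all rows tested, was under 0.05. In the reference, 45 of the 96 nuclear genes were called lower in FA and 3 higher, where 24.1% of all tested genes were called lower and 25.4% higher. Their median log2 fold change was -0.25. The RAS-deleted line had 44 lower and 2 higher (background 21.4% and 21.6%; median -0.21), and the ERF knockout line 53 lower and 3 higher (22.3% and 24.6%; median -0.31). In the double line 83 were lower and 1 higher, against 27.4% and 28.3% of all genes, with a median of -0.54. The median of all tested genes stayed between -0.01 and 0.035 in every comparison. Without the 4 libraries with raised chromosome 8 the calls were 35 lower and 5 higher in the reference (20.4% and 21.9% of all genes; 1 FA library, its spread taken from the other groups), 49 and 2 in RAS-deleted (22.1% and 21.1%), 62 and 3 in ERF knockout (24.6% and 26.5%) and 85 and 2 in double cells (29.2% and 29.5%). In a fit of the reference libraries alone 31 were lower and 1 higher (20.7% and 20.3%), and blocking on replicate number gave 26 and 1 (17.3% and 17.2%). With a 2-fold minimum in the main fit, the share of nuclear members called lay below that of all genes in each line. Those shares of all genes, in either direction, were 24%, 16.5%, 19.7% and 24.9%, in the order of the lines above.

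Across lines, 25 of the 96 (26%) were called lower in all 4 lines, compared with 8.97% of all tested genes, and 10 (10.4%) in none, compared with 58.9%. The lines share no libraries in these 4 comparisons. The 25 take in every complex, and include Ndufv2, Ndufa6, Ndufa8, Ndufa13, Ndufb4c, Ndufb6 and Ndufb8 with the assembly factors Ndufaf1 and Ndufaf5 for complex I; Sdhb for complex II; Uqcrb, Uqcrq, Uqcr10 and Uqcrc1 for complex III; Cox5a, Cox6a1, Cox6b1, Cox6c, Cox7b and Ndufa4 for complex IV; and Atp5c1, Atp5d, Atp5j2 and Atp5k for complex V. Those called lower in no line were Atp5g2, Uqcrfs1, Ndufaf8, Uqcrh, Ndufa4l2, Cox7b2, Cox4i2, Sdhaf3, Ndufc2 and Ndufaf3. The number of lines gives no test of the set, and Ndufb4c is annotated as a processed pseudogene identical to Ndufb4 over 390 bases, so the counts of that pair can be split between them in an arbitrary way. The Atp5g2 row likewise holds a small remainder, since Gm10175, identical over 441 bases, held 92.6% of that pair's reads.

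**Figure D2:**
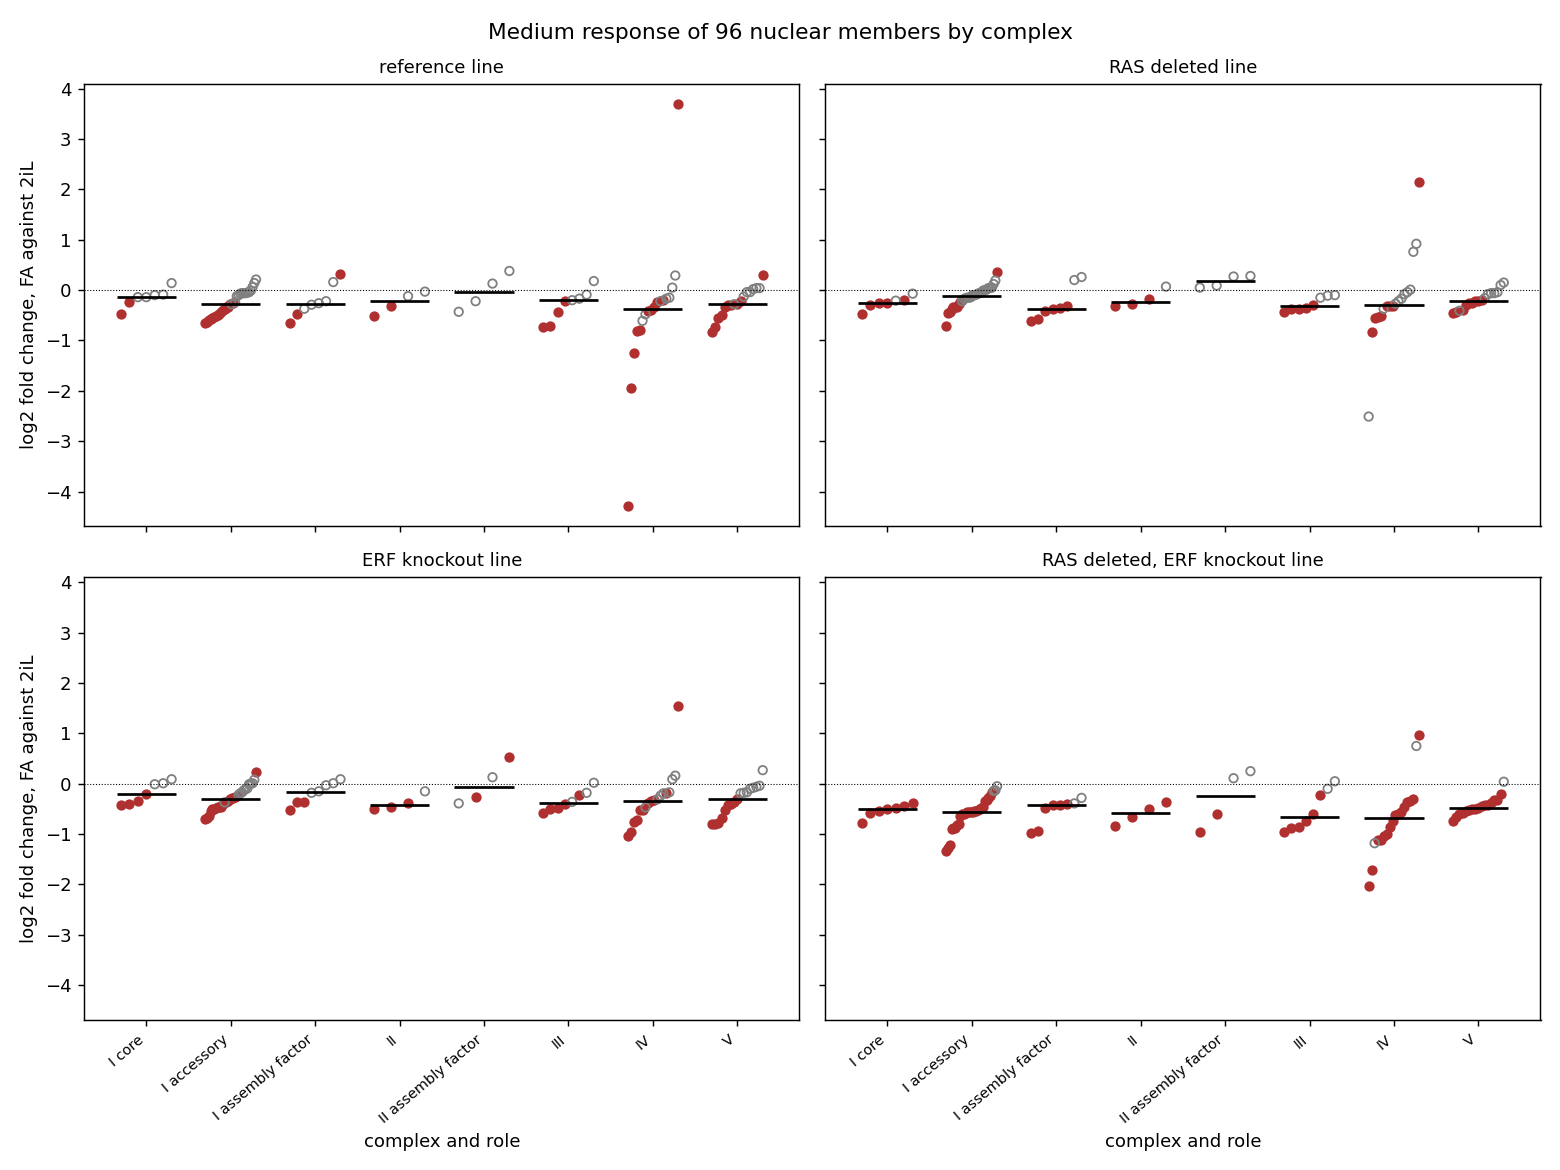
Log2 fold change in FA against 2iL of each nuclear gene, by complex and line; filled red points were called, open grey points were not, and bars are medians. Most points lie below 0 in all 4 panels, and the double line lies lowest, with 83 of 96 called lower.

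The counts by complex stand beside 24.1%, 21.4%, 22.3% and 27.4% of all genes called lower, in reference, RAS-deleted, ERF knockout and double cells. In the reference, the core subunits and assembly factors of complex I lay near that share. The shares of all genes called higher were 25.4%, 21.6%, 24.6% and 28.3%. Complex I takes electrons from NADH. Of its 7 nuclear core subunits, which carry the flavin and iron-sulphur centres, 2 were lower in FA in the reference, 5 in RAS-deleted, 4 in ERF knockout and 7 in double cells, and none was higher. The 30 accessory subunits had 16, 9, 18 and 27 lower, and 0, 1, 1 and 0 higher. The 30 include Ndufb4c, annotated as a processed pseudogene identical to Ndufb4, so reads of 1 subunit can fall in 2 rows. Ndufb1 is not among them, because its row was dropped as Ndufb1-ps. Ndufb6, an accessory subunit of the membrane arm, had 37.9, 32.9 and 33.7 CPM in RAS-deleted 2iL libraries and 21.4, 23 and 19.5 in FA. Double libraries had 42.2, 47.2 and 51.1 CPM in 2iL and 19.6, 21.2 and 19.8 in FA. The media did not overlap in either line, and the log2 fold changes were -0.71 (SE 0.10, adjusted p = 4.66e-06) and -1.21 (SE 0.10, adjusted p = 6.1e-10). Ndufb4, also of the membrane arm, fell from 18.1 ± 1.93 to 7.16 ± 0.813 CPM in the double line (log2 -1.34, adjusted p = 2.94e-09), and by 1.30 with its copy's counts added. The exceptions were single genes. Ndufa11, an accessory subunit of the membrane arm, rose in RAS-deleted cells, from 34.7 ± 1.64 to 44.2 ± 2.93 CPM (log2 0.35, adjusted p = 0.00107). Ndufc2 was called higher in ERF knockout cells, from 27.8 ± 2.68 to 32.7 ± 1.01 CPM (adjusted p = 0.0476), a call lost without replicate 1 or 2 in 2iL or any 1 replicate in FA (0.066 to 0.255). The other genes called higher in that line were Sdhaf3 (adjusted p = 0.0483), an assembly factor of complex II, and Cox7b2. Of the 8 assembly factors, which help build complex I without staying in it, 2, 6, 3 and 6 were lower in the lines in the same order. Ndufaf7, a methyltransferase of that group, was called higher in the reference at 20.4 ± 2.47 against 16.2 ± 2.45 CPM (adjusted p = 0.0368), a call lost without replicate 2 of the reference in FA (adjusted p = 0.343) or replicate 2 or 3 of the reference in 2iL (0.123 and 0.136), and when only the compared groups were fitted (0.138).

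Complex II, succinate dehydrogenase, also works in the citric acid cycle. Among its 4 subunits 2, 3, 3 and 4 were lower in FA, and of its 4 assembly factors 0, 0, 1 and 2. Sdhb, the iron-sulphur subunit, had 59.6, 62.5 and 59.2 CPM in the reference in 2iL against 38.4 and 46.4 in FA, and 64.1, 66.9 and 67.5 against 40.1, 44 and 41.2 in the double line, with no overlap of the media in either. Complex III, the cytochrome bc1 complex, had 4, 5, 5 and 6 of 8 genes lower and none higher. Its small subunit Uqcr10 stood at 74.3, 77.7 and 80.5 CPM in the reference in 2iL and at 45.2 and 47.9 in FA, and all FA libraries of the double line (36.3, 35.5 and 34.9) lay below its 2iL libraries (69.5, 65.1 and 61.8).

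Complex IV, cytochrome c oxidase, held the largest falls of the reference. Its 18 genes had 10, 7, 10 and 15 lower and 1 higher in each line, and their summed level went from 1160 ± 8.59 to 850 ± 43.2 CPM in the reference and from 1260 ± 57.7 to 788 ± 28.6 in the double line. Cox5a, a nuclear subunit found in all tissues, had 158, 168 and 167 CPM in the reference in 2iL and 68.8 and 70.5 in FA. ERF knockout cells had 129, 130 and 131 CPM in 2iL and 66.1, 66.8 and 57.5 in FA, and double cells 132, 142 and 147 against 63.2, 71.1 and 59.4. These are falls to less than 1 in 2 of the 2iL level: log2 -1.24 (SE 0.11, adjusted p = 3.14e-09), -1.04 (SE 0.10, adjusted p = 6.85e-09) and -1.12 (SE 0.10, adjusted p = 1.35e-09). RAS-deleted cells, by contrast, had 169, 150 and 156 CPM in 2iL and still 154, 121 and 108 in FA (log2 -0.31, adjusted p = 0.0103). The FA library at 154 CPM, which lay within the 2iL range, is replicate 1, with raised chromosome 8. The other FA libraries lay below that range. Cox6b1, which joins the monomers of the enzyme, fell in all 4 lines by 0.82, 0.84, 0.75 and 1.00 on the log2 scale (adjusted p 6.67e-07, 1.28e-07, 4.77e-07 and 3.61e-09). The fall of Cox6a1, the widely expressed form of subunit VIa, ran from -0.53 in RAS-deleted (adjusted p = 0.00013) to -1.03 in double cells (adjusted p = 6.61e-09). The lowest and highest Cox6b1 libraries of all lines were 42.1 and 57.3 CPM in FA and 71.7 and 99.9 in 2iL, and its media did not overlap anywhere in the series.

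Complex V, ATP synthase, lost less of its summed level: 2880 ± 66.5 to 2490 ± 327 CPM in the reference and 2990 ± 86.5 to 2230 ± 78.1 in the double line. Of 17 genes 9, 9, 9 and 16 were lower. Atp5g1, one of the genes of the proton-carrying c ring, had 84.1, 103 and 114 CPM in the reference in 2iL against 63.7 and 56.2 in FA (log2 -0.74, adjusted p = 1.29e-05), and 88.9, 72.9 and 74.1 against 45.4, 46.3 and 45.6 in ERF knockout cells (log2 -0.78, adjusted p = 1.53e-06). Atp5k, the small membrane subunit e, fell alike in these lines, by 0.83 and 0.80 on the log2 scale (adjusted p 2.17e-06 and 7.77e-07). Atp5j2, the f subunit, fell from 68.3 ± 3.14 to 39.1 ± 2.38 CPM in ERF knockout cells (adjusted p = 5.61e-09). Atp5e, the epsilon subunit of the central stalk, went the other way in the reference, at 40.9 ± 2.72 against 33.1 ± 1.54 CPM (adjusted p = 0.00362), but the call was lost without replicate 2 of the reference in FA (adjusted p = 0.0843) and in a fit of the 2 groups alone (0.0539).

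Promoters are shown for the 4 genes of the 25 with the lowest mean change over the lines, since a set of genes that moves together invites a look at shared letters there. Each runs from 250 bases before to 50 bases after the RefSeq start (GRCm38.p6), 5′ to 3′ on the gene's strand, with motif matches in capitals. The motifs are the core of ETS factors such as ERF and GABP (CCGGAAG), NRF1 (GCGCATGCG) and YY1 (AAGATGGC), searched on both strands.
Cox5a, chr9:57520982-57521281, plus strand: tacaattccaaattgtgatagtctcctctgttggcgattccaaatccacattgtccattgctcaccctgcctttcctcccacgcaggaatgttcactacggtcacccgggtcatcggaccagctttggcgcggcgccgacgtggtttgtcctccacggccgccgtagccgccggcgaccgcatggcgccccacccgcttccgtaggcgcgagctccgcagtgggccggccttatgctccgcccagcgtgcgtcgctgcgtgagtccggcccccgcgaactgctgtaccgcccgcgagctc
Cox6b1, chr7:30626065-30626364, minus strand: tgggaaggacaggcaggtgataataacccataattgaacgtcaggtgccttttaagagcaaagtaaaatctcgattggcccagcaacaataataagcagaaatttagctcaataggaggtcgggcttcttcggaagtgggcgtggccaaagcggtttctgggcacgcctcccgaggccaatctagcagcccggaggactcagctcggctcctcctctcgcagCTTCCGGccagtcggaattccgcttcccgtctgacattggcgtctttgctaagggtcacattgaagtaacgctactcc
Cox6a1, chr5:115348909-115349208, minus strand: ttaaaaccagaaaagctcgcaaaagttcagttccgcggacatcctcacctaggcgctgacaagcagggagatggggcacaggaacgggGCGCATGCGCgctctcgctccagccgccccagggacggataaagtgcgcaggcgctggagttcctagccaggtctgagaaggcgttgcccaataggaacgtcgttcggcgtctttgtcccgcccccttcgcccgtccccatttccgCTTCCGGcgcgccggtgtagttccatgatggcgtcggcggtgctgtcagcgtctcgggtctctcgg
Ndufb6, chr4:40279372-40279671, minus strand: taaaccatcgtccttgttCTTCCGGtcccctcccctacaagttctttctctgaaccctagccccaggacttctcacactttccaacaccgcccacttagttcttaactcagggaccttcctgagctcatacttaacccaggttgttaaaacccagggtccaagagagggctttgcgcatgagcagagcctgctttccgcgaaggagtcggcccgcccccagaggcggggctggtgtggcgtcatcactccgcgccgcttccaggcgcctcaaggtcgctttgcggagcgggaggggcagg
Cox5a held none of the motifs in this window. Cox6b1, Cox6a1 and Ndufb6 each held the ETS motif once, read on the opposite strand as cttccgg, beginning at base 223, 235 and 19 of the window. Cox6a1 also held the NRF1 motif on both strands, at overlapping bases 89 and 90. A promoter was found for 79 of the 96 nuclear genes, 77 by current and 2 by older symbol. The ETS motif was present in 21 of them (26.6%), compared with 9.93% of 27025 genes in the RefSeq table and 22.2% of 8486 tested genes averaging at least 5 CPM. NRF1 had 10 (12.7%, against 1.95% and 4.65%) and YY1 11 (13.9%, against 3.19% and 5.89%). A match is a run of letters, not a bound site, and the comparison with expressed genes was added after the first shares were seen.

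The lines did not respond alike to the medium, and the difference was tested as an interaction. Among RAS-deleted cells, 45 nuclear genes had a lower FA response in ERF knockout than in ERF wild-type cells and none a higher one, where 13.8% and 12.6% of all genes did (median of the 96, -0.33). The 45 include 19 of the 30 accessory subunits of complex I and 7 of the 18 genes of complex IV. In ERF knockout cells, 26 genes had a lower response with RAS deleted and 1 (Sdhaf2) a higher one, against 6.7% and 6.41% (median -0.28). With ERF wild type, RAS deletion left 10 responses higher and 2 lower, against 12.8% and 11.7%, and with RAS present ERF knockout left 1 higher and 2 lower, against 4.87% and 4.47%. Without the 4 libraries with raised chromosome 8 these 4 splits were 0 higher and 47 lower (13.5% and 14.4% of all genes), 2 and 44 (10.3% and 11.5%), 11 and 15 (11.6% and 12.3%), and 1 and 7 (4.91% and 5.3%), the last 2 of them with 1 reference library in FA. With the authors' effective lengths as offsets the first 2 lower counts dropped to 29 and 13 (10.8% and 3.9% of all genes).

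In 2iL, ERF knockout went with higher nuclear members when RAS was deleted. Relative to RAS-deleted cells, 53 of 96 genes were higher in double cells and 5 lower, with a background of 19.2% and 19.9% and a median of 0.25. With RAS present 14 were higher and 4 lower (background 13.3% and 14.6%; median 0.08). The call of a difference between these effects, the interaction of RAS and ERF in 2iL, was reached by 1 nuclear gene, Cox6a2, in the higher direction (background 0.957% and 0.614%). That gene was under 2 CPM in all 2iL libraries, and the count became 0 without replicate 2 or 3 of RAS-deleted or replicate 2 of double cells, 2 without replicate 3 of the reference and 4 without replicate 1 of double cells. By complex, the genes higher in double cells were 5 of 7 core and 21 of 30 accessory subunits and 5 of 8 assembly factors of complex I, all 4 subunits of complex II and 2 of its 4 assembly factors. Complex III had 3 higher and 2 lower, complex IV 9 and 1, and complex V 4 and 2. Atp5e had 28.5, 28.3 and 27.6 CPM in RAS-deleted and 44.4, 52.4 and 50.6 in double libraries (log2 0.81, SE 0.08, adjusted p = 2.56e-08), and with RAS present 33.7, 34.2 and 31.3 against 42.7, 44.3 and 43.7 (log2 0.40, adjusted p = 0.000333). Sdhc, a membrane anchor of complex II, had 51.3, 46.4 and 48.8 CPM against 70.7, 87 and 80.6 with RAS deleted (log2 0.70, adjusted p = 5.11e-07), and 62, 57.5 and 55.7 against 72.7, 74.3 and 72.4 with RAS present (log2 0.32, adjusted p = 0.00429). Neither gene's groups overlapped. The lower genes were Cox7a1, Uqcr10, Atp5g1 and Cox5a with RAS present, and Cox7b2, Uqcrh, Uqcr10, Atp5g1 and Atp5k with RAS deleted, with Uqcr10 and Atp5g1 in both. Those 2 comparisons share no libraries. Atp5g1 stood at 78.6 ± 8.94 against 100 ± 15.1 CPM in the first (adjusted p = 0.0127, lost without replicate 3 of the reference, at 0.102, or without replicate 2 or 3 of ERF knockout, at 0.069 and 0.0614) and at 79.8 ± 4.60 against 106 ± 2.00 in the second (adjusted p = 0.003).

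RAS deletion in 2iL, where MEK is inhibited, gave few calls among nuclear members in the unpaired fit and more with the replicate number as a block. With ERF wild type 0 were higher and 2 lower, Ndufb4 and Cox6a2, where 2.55% and 3.15% of all genes were called, and the median was -0.06. In ERF knockout cells edgeR's quasi-likelihood test called 0 (background 0.677% and 0.628%; median 0.09), with 17 at an unadjusted p under 0.05 and 2 called by DESeq2. Ndufb4 had 14.1, 13.2 and 13.8 CPM in the reference and 11.2, 9.99 and 9.58 in RAS-deleted libraries (log2 -0.42, adjusted p = 0.0398), and lost its call without any 1 of 5 of the 6 libraries (adjusted p 0.0619 to 0.157; it kept it without replicate 1 of RAS-deleted). All RAS-deleted libraries lay above all others for 6 nuclear genes and below for 25 with ERF wild type (13.7% and 13.5% of all genes), and above for 31 and below for 3 with ERF knockout (12.9% and 11.7%). Fitted with the replicate number as a block, 1 was higher and 9 lower with ERF wild type, and 22 were higher and 0 lower with ERF knockout, where the blocked fits called 8.11% and 8.42%, and 10.5% and 9.49%, of all genes.

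The calls for RAS deletion in FA in ERF wild-type cells moved with the libraries and groups fitted. There were 18 higher and 19 lower nuclear genes, against 19.8% and 21.5% of all genes, with a median of -0.02. The split was 10 and 5 in a fit of these groups alone (13.7% and 13.3% of all genes). With 1 reference library left it was 14 and 30 without the 4 libraries with raised chromosome 8 (18.8% and 20.4%), and 22 genes were called in all without replicate 2 of the reference, both with the spread taken from the other groups. Cox5a was higher in RAS-deleted libraries (154, 121 and 108 CPM) than in the reference (68.8 and 70.5), with log2 0.87 (SE 0.11, adjusted p = 9.83e-07). Atp5g1 (109, 90.7 and 99.8 against 63.7 and 56.2 CPM; adjusted p = 2.21e-05) and Atp5k (25.4, 22 and 22 against 15.6 and 14.2 CPM; adjusted p = 9.42e-05) were also higher. These RAS-deleted FA libraries belong to the group whose naive markers summed to 637 to 1060 CPM, and the part of that state in the difference was not tested. Ndufaf7 was lower, at 11.9, 11.1 and 8.99 CPM against 18.7 and 22.2 (log2 -0.93, adjusted p = 2.54e-06), and so was Atp5e, at 27.7, 27 and 27.5 against 39 and 42.9 (log2 -0.58, adjusted p = 6.04e-06).

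In ERF knockout cells, RAS deletion in FA left 6 nuclear genes higher and 38 lower (background 12.7% and 13.7%; median -0.20). Lower genes included 15 of the 30 accessory and 4 of the 7 core subunits of complex I. Sdhaf1, an assembly factor needed for the iron-sulphur subunit of complex II, had 4.99, 5.67 and 5.59 CPM in double and 8.23, 8.82 and 8.13 in ERF knockout libraries (log2 -0.63, adjusted p = 0.00102). The 6 higher were Uqcrh, Sdhaf2, Ndufa11, Atp5j2, Cox7a2 and Atp5k. Without replicate 2 of ERF knockout in FA 26 genes were called in all. Shares of all genes were not counted in fits that left out 1 library, here or elsewhere. The difference between the RAS effects in FA, the interaction of RAS and ERF, was called for 4 genes in the higher and 18 in the lower direction (background 14.4% and 13.6%), and for 13 in all without replicate 1 of the reference in FA.

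ERF knockout in FA gave 3 higher nuclear genes (Cox6a2, Cox6b2, Ndufb11) and 3 lower (Atp5g1, Atp5g3, Sdhaf2) with RAS present, where 4.37% and 5.4% of all genes were called. These calls hung on single libraries: none was left without replicate 1 of the reference in FA and 19 were called without replicate 2, each time against 1 reference library with the spread of the other groups, and 2 and 1 were left without replicates 1 and 2 of ERF knockout. With RAS deleted 7 were higher and 24 lower (21.6% and 21.3%; median -0.10). Cox5a was lower in double than in RAS-deleted FA cells (log2 -0.98, 64.6 ± 5.95 against 127 ± 23.8 CPM, adjusted p = 2.17e-08). Atp5g1 fell by 0.85 (adjusted p = 5.55e-07) and Uqcr10 by 0.80 (adjusted p = 4.44e-07). Ndufaf7 was higher, at 15.5, 17 and 16.5 against 11.9, 11.1 and 8.99 CPM (log2 0.62, adjusted p = 0.000139). This comparison and that of RAS deletion with ERF wild type share the 3 RAS-deleted FA libraries, so that their opposite signs for Cox5a, Atp5g1 and Ndufaf7 are not independent.

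**Figure D3:**
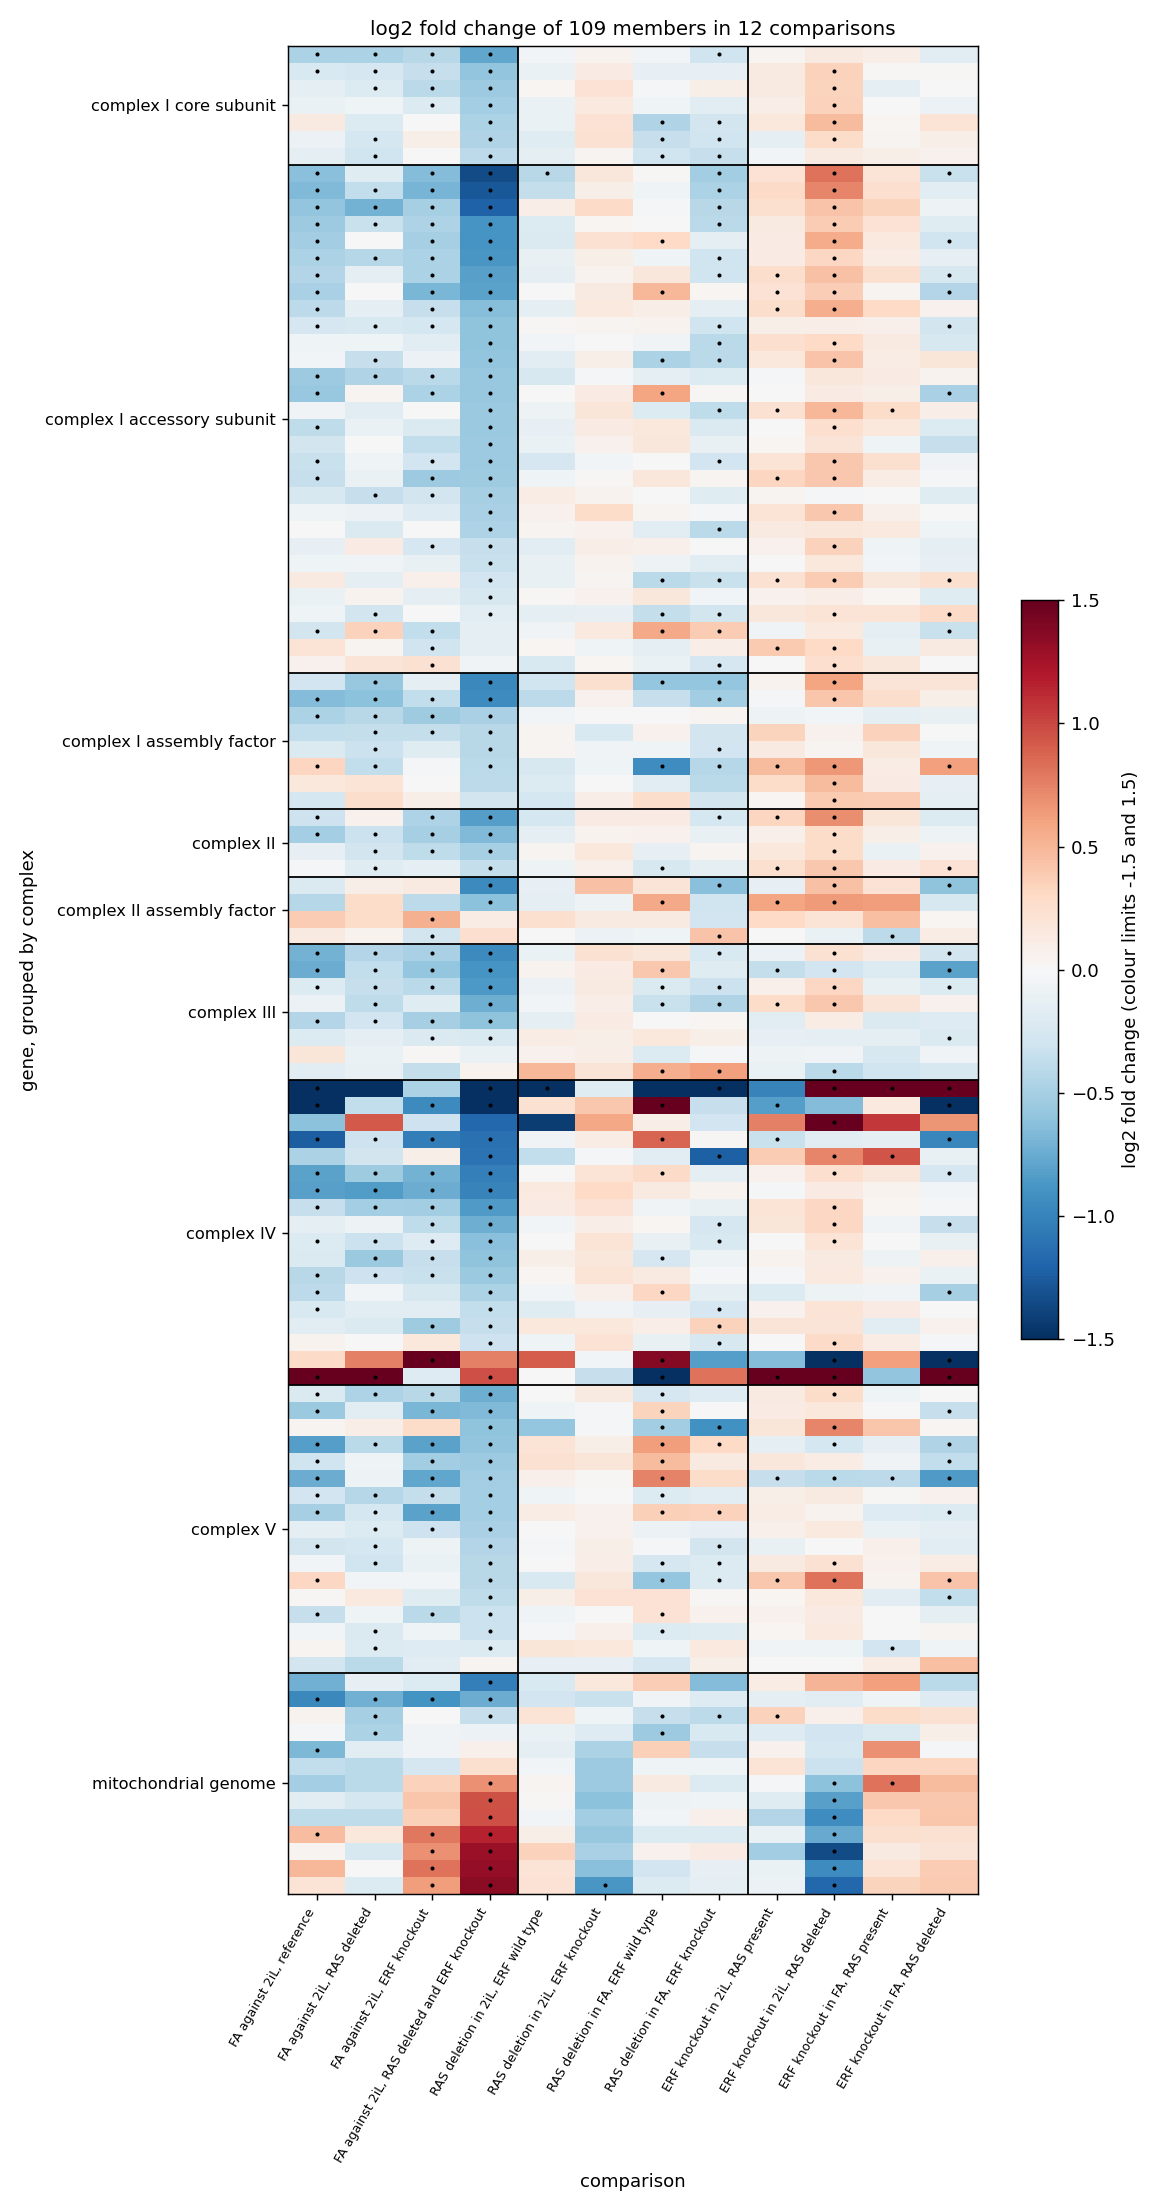
Log2 fold changes of the 109 genes (rows, grouped by complex) in the 12 comparisons (columns), on a colour scale that ends at -1.5 and 1.5; dots mark called genes. The 4 columns at the left, FA against 2iL, are mostly blue for nuclear genes, and the column of ERF knockout in 2iL with RAS deleted is mostly red, while 7 of the 13 mitochondrial rows at the foot were called higher in FA in the double line.

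Several complex IV subunits exist in tissue-restricted forms. Cox7a1, the heart and muscle form of subunit VIIa, had 13.7, 8.99 and 10.6 CPM in the reference in 2iL and 2.73 and 3.13 in FA (log2 -1.94, SE 0.32, adjusted p = 3.2e-05). Its RAS-deleted libraries held 15.3, 11.3 and 12.8 CPM in 2iL and 16.2, 8.35 and 6 in FA, which overlap, and its double libraries fell from 8.34 ± 1.10 to 2.54 ± 0.347 CPM (log2 -1.71, adjusted p = 2.64e-05). The general form Cox7a2 was called in neither the reference (log2 -0.17, adjusted p = 0.186) nor RAS-deleted cells (-0.22, 0.0518), and fell by 0.53 in ERF knockout (adjusted p = 5.05e-05) and by 0.35 in double cells (adjusted p = 0.00247). In FA, RAS-deleted cells therefore stood above the reference for Cox7a1 (log2 1.79, adjusted p = 0.000106), and without the 4 libraries with raised chromosome 8 by 1.21 (adjusted p = 0.001, against 1 reference library with the spread of the other groups).

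Cox6b2, the testis form of subunit VIb, was no rarity in these cells: 29.4, 30.9 and 30.5 CPM in the reference in 2iL. In FA it stood at 37.7, 47.4 and 40.2 CPM in ERF knockout and at 13.6, 16.4 and 24.1 in double libraries, groups that did not overlap (log2 -1.22, SE 0.22, adjusted p = 0.00067). Against their own 2iL level the double cells had fallen (38.8 ± 2.42 to 18 ± 5.45 CPM, adjusted p = 0.000379), while ERF knockout cells were at 39.4 ± 4.09 and 41.8 ± 5.01 CPM (adjusted p = 0.777).

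The other restricted forms lay near 1 CPM or below. Ndufa4l2, the hypoxia-linked relative of the complex IV subunit Ndufa4, had 0.175, 0 and 0.139 CPM in the reference in 2iL and 1.40 and 1.80 in FA (log2 3.70, SE 0.50, adjusted p = 1.59e-06). It was already at 1.54, 1.52 and 0.578 CPM in ERF knockout cells in 2iL (log2 3.31 over the reference, adjusted p = 2.18e-05) and was not called between their media (log2 -0.19, adjusted p = 0.686). RAS-deleted cells rose from 0.120 ± 0.0360 to 0.552 ± 0.216 CPM (adjusted p = 0.00268). Ndufa4 itself was at 55.3 ± 1.89 CPM in the reference in 2iL and 48.2 ± 3.48 in FA.

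Cox6a2, the muscle form of subunit VIa, had 1.58, 1.67 and 0.697 CPM in the reference in 2iL and 0.215, 0.0507 and 0.0484 in RAS-deleted cells (log2 -3.61, SE 0.54, adjusted p = 0.000394). It was also low in the reference in FA (0.036 and 0.0947 CPM; log2 -4.29, adjusted p = 8.62e-06). ERF knockout and double cells in 2iL lay at 0.673, 0.704 and 0.578 and at 0.683, 0.560 and 0.472 CPM, and RAS deletion between them was not called (log2 -0.18, adjusted p = 0.904). Cox7b2 stayed between 0.0526 and 1.26 CPM and Cox4i2 between 0 and 0.840 CPM in all libraries, where a few reads decide a value, and Cox8b and Cox8c were below the count minimum.

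**Figure D4:**
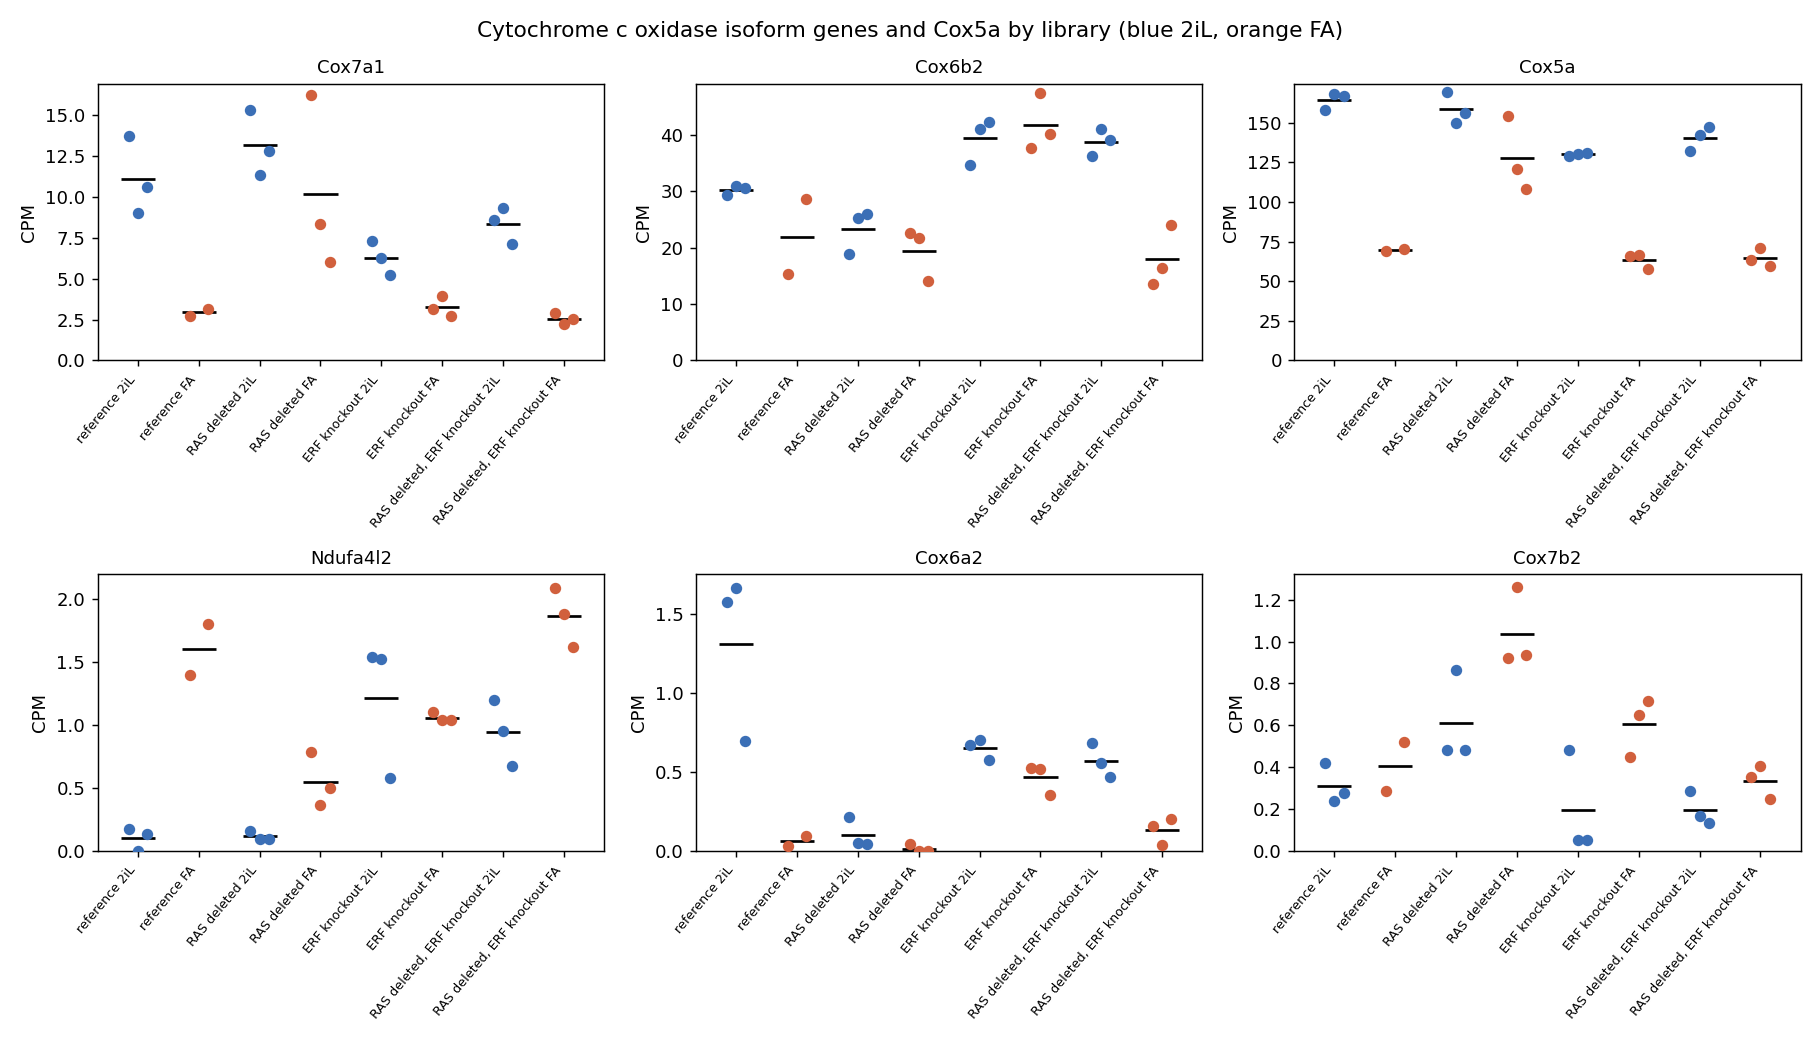
CPM per library of Cox7a1, Cox6b2, Cox5a, Ndufa4l2, Cox6a2 and Cox7b2 in the 8 groups, 2iL in blue and FA in orange. RAS-deleted FA libraries of Cox7a1 (6 to 16.2 CPM) and Cox5a (108 to 154 CPM) stand above the other FA libraries, and Ndufa4l2 is under 0.2 CPM in reference and RAS-deleted 2iL libraries and above 0.5 in ERF knockout ones.

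The 13 protein-coding genes of the mitochondrial genome had negative medians in FA in the reference and RAS-deleted lines, as the nuclear genes did, and positive ones in the ERF knockout and double lines. Their sum was 7930 ± 687 CPM in the reference in 2iL and 7530 ± 881 in FA, 8550 ± 189 and 6590 ± 1310 in RAS-deleted, 8510 ± 905 and 9150 ± 1410 in ERF knockout, and 7090 ± 633 and 7790 ± 795 in double cells, with media overlapping in all but the RAS-deleted line. With copies added the double line did not overlap either (at most 9170 CPM in 2iL and at least 9550 in FA). In FA against 2iL, 1 gene was higher and 2 lower in the reference (median -0.16), 0 and 3 in RAS-deleted (-0.26), 4 and 1 in ERF knockout (0.35) and 7 and 3 in double cells (0.69), beside the background shares given above. Leaving out 1 library at a time moved these medians to between -0.31 and -0.05, -0.46 and -0.09, 0.19 and 0.53, and 0.57 and 0.81. With the replicate number as a block ERF knockout cells had 7 higher and 2 lower, where that fit called 28.6% and 29% of all genes. Without the filter on low counts 2 were higher and 6 lower in the reference (14.1% and 12.5% of all genes), 0 and 9 in RAS-deleted (12% and 11%) and 7 and 2 in ERF knockout cells (13.9% and 11.2%).

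Copies of mitochondrial genes in the nuclear genome took up part of the counts. In pairs at least 98% identical over 200 bases or more, the copy held 92.4% of the reads of mt-Co2 and Gm28661, 70.5% of mt-Nd3 and Gm28438, 58.7% of mt-Co3 and Gm28437, and 34.2% of mt-Atp6 and Gm10925. Such a split need not be the same in each library: for mt-Atp6 the copy's share was 12.2% in the reference in 2iL and 58.7% in FA. The deposited row of mt-Atp6 was called lower in FA in the reference (log2 -0.67, adjusted p = 0.0371, lost without any 1 of its libraries), and with the copy's counts added it was higher (0.41, adjusted p = 0.0477). For mt-Co2 in double cells the deposited row gave -1.02 (-0.33 without replicate 3 in 2iL) and the sum 0.31 (adjusted p = 0.0124). With copies added, calls in FA against 2iL were 2 higher and 1 lower in the reference (median 0.03), 0 and 3 in RAS-deleted (-0.29), 6 and 1 in ERF knockout (0.36) and 10 and 2 in double cells (0.91). Directions for mt-Co2, mt-Co3 and mt-Atp6 therefore rest on this choice, which was made after seeing the data.

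No near-identical copy was found for mt-Cytb, mt-Nd1, mt-Nd2 and mt-Atp8. For mt-Nd4 the copy held 15.9% of the pair's reads in double 2iL and 5% in double FA cells, and for mt-Nd4l and mt-Co1 at most 2.72% in any group. mt-Cytb, the mitochondrial subunit of complex III, had 286, 359 and 332 CPM in double 2iL libraries and 737, 832 and 926 in FA (log2 1.35, SE 0.19, adjusted p = 9.5e-06). In the reference it had 481, 653 and 761 CPM in 2iL and 673 and 787 in FA, which overlap (log2 0.21), and in RAS-deleted cells 698, 740 and 766 against 474, 632 and 796 (log2 -0.21). In the double line mt-Nd1, mt-Nd2, mt-Nd4 and mt-Nd4l, all of the membrane arm of complex I, rose by 1.30, 0.97, 0.96 (0.78 with copies added) and 1.32, and mt-Atp8, of complex V, by 1.15. mt-Co1, the catalytic subunit of complex IV, did not join them: it fell in double cells (log2 -0.34, adjusted p = 0.0166, lost without replicate 3 in 2iL, at 0.0755, or replicate 2 in FA, at 0.053) and in RAS-deleted cells (-0.50, adjusted p = 0.00158).

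mt-Nd6, the one protein gene read from the light strand, was lower in FA in every line. Its libraries had 133, 158 and 135 CPM in the reference in 2iL and 64.3 and 80.9 in FA, 110, 114 and 123 against 71, 64.6 and 74.9 in RAS-deleted, 129, 136 and 125 against 64.6, 68.3 and 76.6 in ERF knockout, and 116, 92.7 and 101 against 59.5, 53.8 and 70.8 in double cells. No line's media overlapped, and the log2 fold changes were -0.97, -0.72, -0.90 and -0.75 (adjusted p 5.11e-07, 7.61e-06, 2.57e-07 and 2.37e-06). The library kit kept strand, but the strand setting of the counting is not given in the sources used here, so reads of mt-Nd6 and of transcripts opposite to it may be mixed.

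**Figure D5:**
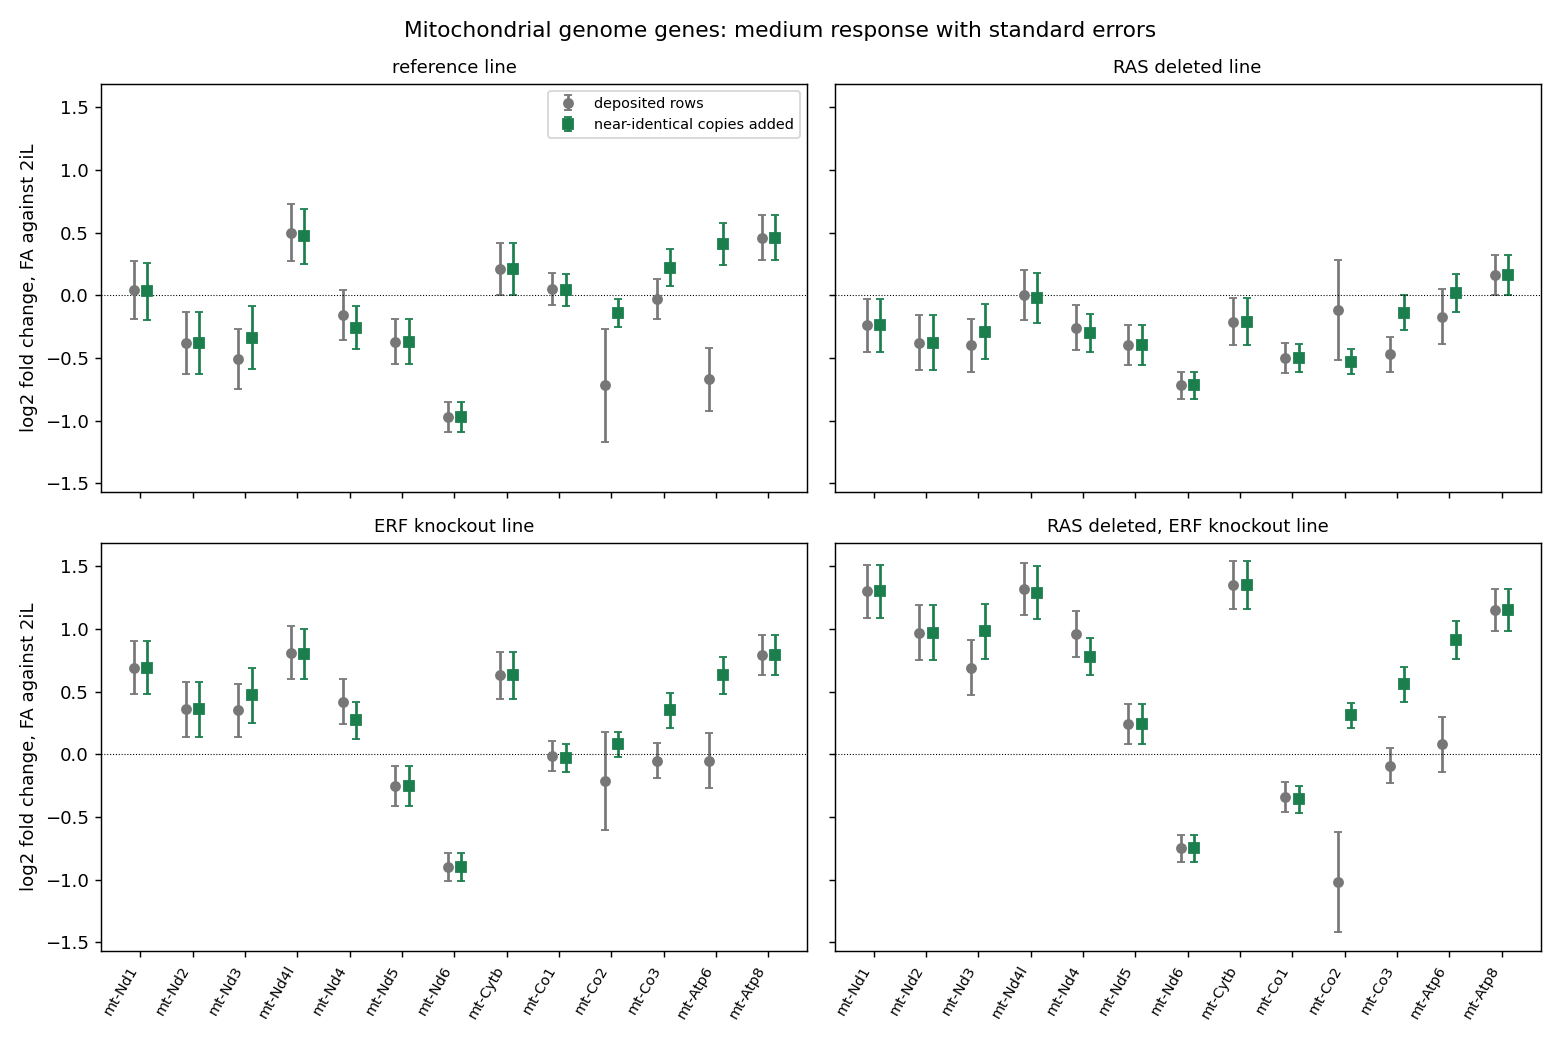
Log2 fold change in FA against 2iL of the 13 mitochondrial genes in each line, from the deposited rows (grey) and with near-identical copies added (green); lines are standard errors. mt-Nd6 lies between -0.97 and -0.72 in the 4 panels; mt-Cytb, mt-Nd1 and mt-Nd4l exceed 1.2 in the double line; and mt-Co2, mt-Co3 and mt-Atp6 shift where copies are added.

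In 2iL the double cells stood apart from RAS-deleted cells for mitochondrial genes, in the direction opposite to the nuclear ones. ERF knockout with RAS deleted had 0 higher and 7 lower (median -0.61), and 0 and 10 with copies added, where 19.2% and 19.9% of all genes were called. mt-Nd1 had 720, 742 and 752 CPM in RAS-deleted and 264, 319 and 291 in double libraries, and fell by 1.34 (adjusted p = 8.83e-05), and mt-Cytb fell by 1.18 (adjusted p = 9.99e-05). With RAS present (background 13.3% and 14.6%) 1 was higher, mt-Co1 (log2 0.34, adjusted p = 0.035), and 0 lower, and that call was lost without any 1 of the reference libraries or replicate 2 or 3 of ERF knockout (0.0604 to 0.118). The interaction of medium and ERF in RAS-deleted cells was called for 8 mitochondrial genes, all higher (median 0.99; background 12.6%), and for 11 with copies added. Among the 8 was mt-Nd5, of complex I, at 0.64 (adjusted p = 0.044), which no comparison of 2 groups called: it had 623 ± 66.9 CPM in double cells in 2iL and 735 ± 94.2 in FA, and 778 ± 26.8 and 588 ± 129 in RAS-deleted cells. Counts in the other comparisons of 2 groups were at most 2. Without the filter on low counts, RAS deletion in 2iL had 1 higher and 1 lower with ERF wild type and 0 and 10 with ERF knockout, where at most 2.92% of all genes were called in either direction. RAS deletion in FA then had 2 and 4 (10.3% and 11.9%) and 0 and 4 (6.3% and 8.18%). ERF knockout in FA had 8 and 0 with RAS present (3.68% and 3.66%) and 8 and 1 with RAS deleted (11.5% and 11.4%). With the filter, RAS deletion in 2iL gave 0 with ERF wild type (1 at an unadjusted p under 0.05, and 0 by DESeq2) and 1 lower with ERF knockout, mt-Cytb (log2 -0.87, adjusted p = 0.0315), with 9 at an unadjusted p under 0.05, and the blocked fit called 2 and 11. The background shares are those given for the nuclear genes, from 0.628% to 3.15% unblocked and 8.11% to 10.5% blocked. That mt-Cytb call was lost without any 1 of 5 of the 6 libraries (adjusted p 0.072 to 0.13). In FA, RAS deletion gave 2 lower with ERF wild type (background 21.5%), mt-Co1 and mt-Co3, neither of them without replicate 2 of the reference (adjusted p 0.532 and 0.0827), and 1 lower with ERF knockout (background 13.7%), mt-Co1 (adjusted p = 0.0174, and 0.125 without replicate 2 of ERF knockout). ERF knockout gave 1 higher with RAS present (background 4.37%), mt-Nd3 (adjusted p = 0.0393, lost without any 1 library, 0.0639 to 0.239), and 0 with RAS deleted (2 at an unadjusted p under 0.05, and 1 called by DESeq2).

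Other genes of mitochondrial energy metabolism were counted in FA against 2iL from lists, in the order reference, RAS-deleted, ERF knockout and double, beside 24.1%, 21.4%, 22.3% and 27.4% of all genes lower and 25.4%, 21.6%, 24.6% and 28.3% higher. Of 35 further assembly factors, 11, 10, 10 and 20 were lower and 7, 3, 5 and 4 higher. Of 14 genes for electron carriers and nucleotide exchange 5, 6, 7 and 9 were lower and 0, 1, 1 and 1 higher, among them Etfb, which passes electrons from fatty acid oxidation, at 33.1 against 81.3 CPM in the reference (adjusted p = 1.25e-08), and Coq2, of coenzyme Q synthesis, at 11.9 against 24.7 CPM in double cells (adjusted p = 4.61e-08). The 13 citric acid cycle genes had 5, 6, 5 and 10 lower and 3, 1, 2 and 1 higher. The 78 mitochondrial ribosome genes had 17, 28, 17 and 33 lower and 12, 3, 6 and 3 higher, so that the lower share in the reference and ERF knockout lines was at or below that of all genes (24.1% and 22.3%). The 13 import and outer membrane genes had 3, 5, 4 and 5 lower and 2, 1, 0 and 2 higher. The 11 genes of mitochondrial DNA upkeep had 1, 1, 3 and 3 lower and 4, 2, 4 and 3 higher. Twnk, the mitochondrial helicase, was at 40.4 against 24.3 CPM in the reference (adjusted p = 0.000269). The 14 genes of mitochondrial RNA processing had 4, 5, 5 and 5 lower and 4, 1, 2 and 4 higher. Fastkd1, an RNA-binding protein of mitochondria, was at 17.8 against 37.2 CPM in double cells (adjusted p = 4.15e-10).

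Of 18 glycolysis genes, 12, 11, 12 and 12 were called higher (all genes 25.4%, 21.6%, 24.6% and 28.3%) and 5, 2, 5 and 4 lower (24.1%, 21.4%, 22.3% and 27.4%), with medians of 0.77, 0.39, 0.61 and 0.43. Pfkl, a phosphofructokinase, went from 38 to 230 CPM in the reference (adjusted p = 5.97e-16) and the glucose transporter Slc2a1 from 57.7 to 396 CPM in double cells (adjusted p = 9.7e-08), whereas Hk1, the hexokinase bound to mitochondria, fell from 133 to 34.7 CPM in the reference (adjusted p = 6.11e-07). Of 15 tested nuclear regulators 7, 7, 7 and 9 were higher and 3, 4, 3 and 2 lower, beside the same shares of all genes, and the lower counts are near or under them. Esrrb, an orphan receptor of the naive state that binds respiratory genes, went from 436 to 27.1 CPM in the reference and from 401 to 193 CPM in RAS-deleted cells (adjusted p 1.66e-13 and 1.2e-06), Lin28a, a regulator of let-7, from 6.63 to 336 CPM in the reference (adjusted p = 5.19e-09), and Gabpa, the ETS activator of respiratory genes, from 117 to 72.8 CPM in double cells (adjusted p = 1.53e-09).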

How the data were processed

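RNA from 23 libraries was depleted of ribosomal RNA, made into stranded libraries and sequenced as 75-base pairs, per the labels' protocols. Salmon (version not given), fastp 0.20.0, bcl2fastq 2.20.0 and the build mm10 are named in the submitters' processing notes. The authors deposited estimated counts per gene, which equal the rounded gene-level estimates of the sample files, and TPM, used here only to compare levels between genes.

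Counts were tested with edgeR 4.0.16 (R 4.3.3, limma 3.58.1): filterByExpr, TMM, robust quasi-likelihood, 1 coefficient for each of 8 groups over all 23 libraries, Benjamini-Hochberg adjustment over 20372 genes, called under 0.05. The 12 comparisons and 6 interactions share this fit, and comparisons with a common group share libraries. Totals of 16221640 to 29874207 counts set the precision, so genes near 1 CPM rest on few reads. Alternatives were DESeq2 1.42.0, other scalings, filters and offsets, a 2-fold minimum, the compared groups alone, a replicate block, and leaving out each library. Adding near-identical copies and leaving out the 4 libraries with raised chromosome 8 were chosen after seeing the data. The scripts were tested on simulated data, for FA against 2iL in the reference, with 50 genes changed at each size and 1 set dispersion. Called were 6% of the genes changed 1.25-fold, 64% at 1.5-fold and 100% at 2-fold and 4-fold. Of 141 calls 6 were false. Far fewer genes were changed there than were called in the data, so these shares need not hold for the data.

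Genes named are all 13 mitochondrial genes, the 6 largest called rises and falls per comparison among nuclear genes with at least 5 CPM in the higher group, tissue-restricted isoforms with their counterparts, and the 2 largest called rises and falls of other lists. Further genes in counts of 5 or fewer, in the group called lower in all 4 lines, or given as examples of complexes II and III were chosen after their values were seen. Members and lists were chosen with earlier results of these data known. Some genes are not reported here.

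Same-numbered libraries deviated together, with every correlation above 0.1, in 4 comparisons at a mean of at least 5 CPM (10954 genes): FA against 2iL in ERF knockout (0.14 to 0.33) and double cells (0.15 to 0.19), and RAS deletion in 2iL with ERF wild type (0.26 to 0.50) and knockout (0.28 to 0.48). Over all tested genes none of the 12 met that mark, so the pairing depends on the filter, and the labels do not say what a number stands for.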

Additional observations from a re-analysis of the deposited data

Results flagged for a closer look

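Effects of one factor that differed with another, by an adjusted p of the interaction in edgeR's quasi-likelihood test, are listed here as values.

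The medium response (FA against 2iL) differed with RAS deletion in ERF wild-type cells for 12 of 96 nuclear genes, 10 higher and 2 lower (all genes 12.8% and 11.7%). Without the 4 libraries with raised chromosome 8 there were 11 and 15 (11.6% and 12.3%), with 1 reference library in FA. Among the 12 were Cox7a1 at 1.56 (adjusted p = 0.00627), Cox5a at 0.92 (4.12e-05), Atp5e at -0.34 (0.0283) and Ndufaf7 at -0.69 (0.00423) on the log2 scale. It differed for 1 of 13 mitochondrial genes, mt-Co1 at -0.55 (0.025). In ERF knockout cells it differed with RAS deletion for 27 nuclear genes (all genes 6.41% higher and 6.7% lower), among them Cox6b2 at -1.20 (0.0177), Sdhaf1 at -1.08 (0.000608) and Sdhaf2 at 0.52 (0.0296). That count was 16 without replicate 2 of ERF knockout in FA, and 17 without replicate 2 or 3 of the double line in 2iL.

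The medium response differed with ERF knockout for 3 nuclear genes with RAS present (all genes 4.87% higher and 4.47% lower): Ndufa4l2 at -3.89 (0.000252) and Cox6a2 at 3.82 (0.00397), both under 2 CPM in these libraries, and Ndufv3 at -0.50 (0.023). The count was 8 without the 4 libraries with raised chromosome 8, and 5 without replicate 1 of the reference in 2iL or replicate 2 in FA. With RAS deleted it differed for 45 (all genes 12.6% and 13.8%), among them Cox7a1 at -1.34 (0.0113) and Ndufb4 at -1.15 (2.46e-05). In the latter, 8 mitochondrial genes differed in the other direction, with mt-Nd1 at 1.53 (0.000951) and mt-Cytb at 1.57 (0.000284).

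The effect of RAS deletion in FA differed with ERF knockout for 22 nuclear genes, 4 higher and 18 lower (all genes 14.4% and 13.6%), and for 5 and 9 without the 4 libraries with raised chromosome 8 (13.5% and 11.6%), with 1 reference library. Among the 22 were Cox7a1 at -2.14 (0.000726), Cox6b2 at -1.05 (0.0256), Sdhaf2 at 0.50 (0.0233) and Ndufaf7 at 0.50 (0.0287). In 2iL it differed for 1 nuclear gene, Cox6a2 at 3.43 (all genes 0.957% and 0.614%), and for 0 to 4 with 1 library left out.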

How the results depend on the processing

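Depth limits genes near 1 CPM, and the reference in FA has 2 libraries, or 1 where a setting leaves 1 out, with its spread then taken from the other groups. Counts below are calls in either direction. Where no share of all genes stands beside a count, it alone does not tell whether the members moved more than all genes did. Of 5753 values of named genes under an alternative, 5274 kept their side of the threshold, 284 lost and 187 gained a call, and 8 reversed. A change of sign with no call in either fit was not counted as reversed, so the 5274 did not all keep their direction. The cause of a change was not tested unless the setting itself removes genes or samples.

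With a 2-fold minimum, which only removes calls, nuclear calls for FA against 2iL were 4 in reference, 1 in RAS-deleted, 2 in ERF knockout and 8 in double cells. Mitochondrial calls were 0, 0, 0 and 5. Of all tested genes 24%, 16.5%, 19.7% and 24.9% were called by that rule, above the nuclear members' share in each line. RAS deletion in 2iL kept 1 nuclear call with ERF wild type and 0 mitochondrial with knockout, and in FA 3 and 2 nuclear and 0 and 0 mitochondrial. All genes called were 1.2% and 0.211% in 2iL, and 17.3% and 6.88% in FA, with ERF wild type and knockout. ERF knockout in 2iL kept 1 and 4 nuclear and 0 and 2 mitochondrial (RAS present, deleted), and in FA 1 and 4 nuclear and 0 mitochondrial. Against these, 9.72% and 13% of all genes were called in 2iL, and 2.36% and 16.6% in FA. Interactions of medium and RAS kept 1 and 2 nuclear and 0 mitochondrial, of medium and ERF with RAS deleted 3, and of RAS and ERF in FA 4. For all genes the shares of these interactions were 11.9%, 4.59%, 11.3% and 13.7%.

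Without the filter on low counts, mitochondrial calls for FA against 2iL were 8, 9 and 9 in reference, RAS-deleted and ERF knockout cells, for RAS deletion 2 and 10 in 2iL and 6 and 4 in FA, for ERF knockout 3 and 11 in 2iL and 8 and 9 in FA, and for the interactions 6, 8, 7, 2 and 9. Nuclear calls were 7 for RAS deletion in 2iL with ERF wild type, 5 for medium and ERF with RAS present and 14 for RAS and ERF in FA. The shares of all genes in that fit stand with the mitochondrial genes above, but not for ERF knockout in 2iL or the interactions.

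DESeq2 called 5 and 2 nuclear genes for RAS deletion in 2iL, 3 for RAS and ERF in 2iL, and mitochondrial genes 5 for RAS deletion in 2iL with ERF knockout, 1 for ERF knockout in FA with RAS deleted, 1 and 1 for medium with RAS (ERF knockout) and with ERF (RAS present), and 2 for RAS and ERF in 2iL. Upper-quartile scaling gave a nuclear median of -0.48 for double cells in FA, 6 calls for RAS deletion in 2iL with ERF wild type, 19 (11 higher, 8 lower) for medium and RAS with ERF wild type, 2 nuclear and 1 mitochondrial for RAS and ERF in 2iL, and 8 higher and 0 lower for ERF knockout in FA with RAS present, where DESeq2 gave 5 and 3. Effective lengths as offsets gave 1 for RAS deletion in 2iL with ERF wild type, 3 nuclear and 1 mitochondrial for ERF knockout in FA (RAS present, deleted), and 13 and 29 for medium with RAS (ERF knockout) and with ERF (RAS deleted). The compared groups alone gave 1 and 2 nuclear for RAS deletion in 2iL and 3 mitochondrial with ERF knockout, 15 nuclear and 1 mitochondrial for RAS deletion in FA with ERF wild type, and 1 nuclear for ERF knockout in FA with RAS present.

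With the replicate block, nuclear calls were 27 for FA against 2iL in the reference, 10 and 22 for RAS deletion in 2iL, 15 for RAS deletion in FA with ERF wild type (11 higher, 4 lower) and 1 and 20 for ERF knockout in FA, where those fits called 17.2% of all genes higher and 17.3% lower, 8.11% and 8.42%, 10.5% and 9.49%, 14.9% and 12.8%, 3.25% and 2.88%, and 16.8% and 18.7%. Mitochondrial calls with the block were 5 and 9 for FA against 2iL in reference and ERF knockout cells, 2 and 11 for RAS deletion in 2iL, 1 and 6 in FA, 3 for ERF knockout in 2iL with RAS present and 5 in FA with RAS deleted. Its other counts stayed within 1.5 times.

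Adding near-identical copies reversed, with calls, mt-Atp6 in FA in reference (0.41) and ERF knockout cells (0.63), mt-Co3 in ERF knockout (0.35) and double cells (0.56), mt-Co2 in double cells (0.31), mt-Co2 for RAS deletion in 2iL with ERF knockout (-0.42) and for ERF knockout in 2iL with RAS deleted (-0.68). Mitochondrial medians became 0.03 and 0.91 for FA in reference and double cells and 0.18 for RAS deletion in 2iL with ERF wild type. Mitochondrial calls became 2 for RAS deletion in 2iL with ERF knockout, 1 in FA with ERF wild type, 0 for ERF knockout in FA with RAS present, and 2 for RAS and ERF in 2iL, with 2 nuclear. Without the 4 libraries with raised chromosome 8, Cox6a1 for RAS deletion in FA with ERF wild type turned to -0.03 (adjusted p = 0.799), with a nuclear median of -0.10 and 1 mitochondrial call. That setting gave 1 mitochondrial call for FA in the reference, 3 nuclear and 2 mitochondrial for RAS deletion in 2iL with ERF knockout, 3 mitochondrial for ERF knockout in 2iL with RAS present, 0 and 0 in FA, nuclear interactions of 26, 46, 8, 14 and 2, and 1 mitochondrial for medium and RAS with ERF knockout.

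Leaving out 1 library at a time gave, for FA against 2iL, mitochondrial calls of 1 to 2 in reference, 2 to 5 in RAS-deleted and 3 to 6 in ERF knockout cells (median 0.19 to 0.53). RAS deletion in 2iL gave 1 to 3 nuclear calls and a mitochondrial median of -0.06 to 0.11 with ERF wild type, and 0 to 1 mitochondrial calls and a median of -0.62 to -0.35 with knockout. ERF knockout in 2iL with RAS present gave 0 to 1 mitochondrial. RAS deletion in FA gave 22 to 37 and 26 to 44 nuclear (medians -0.07 to 0.09 and -0.24 to -0.16) and 0 to 2 and 0 to 3 mitochondrial. ERF knockout in FA gave 0 to 19 nuclear (median 0.01 to 0.20) and 0 mitochondrial with RAS present, and 0 to 5 mitochondrial (median 0.10 to 0.42) with RAS deleted. Interactions gave 0 to 1 mitochondrial for medium and RAS with ERF wild type, 16 to 30 nuclear with knockout, 2 to 5 nuclear and 0 to 1 mitochondrial for medium and ERF with RAS present, and for RAS and ERF 13 to 30 nuclear in FA, 0 to 4 in 2iL and 0 to 1 mitochondrial in each.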

Other observations

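The mitochondrial ribosomal RNAs, which library preparation is meant to remove and whose level can therefore reflect the removal, summed to 19000 ± 1830 CPM in the reference in 2iL and 22600 ± 2060 in FA, 22500 ± 731 and 17900 ± 2270 in RAS-deleted, 26000 ± 855 and 28700 ± 1060 in ERF knockout, and 24100 ± 466 and 24000 ± 4220 in double cells.

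Nuclear genes were split by the ETS letters in their promoter window, and no split was tested. For ERF knockout in 2iL with RAS deleted, the 21 genes with the motif had a median log2 fold change of 0.19, with 9 called higher and 2 lower. The 58 without it had 0.24, with 32 and 3, where 19.2% and 19.9% of all genes were called. With RAS present the medians were 0.03 and 0.11. For FA against 2iL in double cells they were -0.49 and -0.52, with 17 of 21 and 51 of 58 called lower (all genes 27.4%). For ERF knockout in FA with RAS deleted they were -0.12 and -0.07, with 7 of 21 and 13 of 58 called lower (all genes 21.3%). Split by NRF1 letters, that comparison had medians of -0.23 with and -0.08 without them, with 7 of 10 and 13 of 69 called lower, whereas FA against 2iL in double cells had -0.51 in both, with 8 of 10 and 60 of 69. Split by YY1 letters, the medians were -0.12 and -0.08 in the first, with 2 of 11 and 18 of 68 called lower, and -0.49 and -0.52 in the second, with 10 of 11 and 58 of 68.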
